A study of Rattus norvegicus with 9 samples.

Results

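The 9 genes Ifnar1, Ifnar2, Jak1, Stat2, Irf9, Stat3, Irf1, Irf3 and Irf7 encode the type I interferon receptor, a kinase that binds it and transcription factors of the STAT and IRF families. They were chosen by symbol from the 18629 gene lines of the expression table, and all 9 were among the 13708 genes that passed the filter on low counts. The cells were primary cardiomyocytes prepared by enzyme digestion of hearts from 1- to 2-day-old Sprague-Dawley rats. All of them received 14 h in 1% serum with 1 g/L glucose and then 48 h in medium holding glucose at 33 mM with insulin at 100 nM, which models diabetes in culture. All were also infected with an adenovirus, which carried wild-type Yap1 (Ad-Yap1 WT, here Yap1 WT), a short hairpin RNA against Yap1 (Ad-Yap1 shRNA, here Yap1 shRNA) or green fluorescent protein (Ad-GFP, here GFP). Messenger RNA was sequenced in 3 libraries of each group. The labels give no virus with a control hairpin, so the hairpin vector and the lower Yap1 level cannot be told apart. Each group received its own virus, so a difference in virus dose or preparation cannot be told apart from the insert in any comparison. They do not say whether the replicates came from separate cell isolations, so the p-values measure the spread between these libraries, which may be technical.

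Type I interferons bind a receptor made of IFNAR1 and IFNAR2. The kinases TYK2 and JAK1, which are attached to the receptor, then phosphorylate STAT proteins. STAT2 joins IRF9 in the complex ISGF3, which switches on interferon-stimulated genes through the interferon-stimulated response element (ISRE). IRF3 is a constitutive factor that is phosphorylated after viral nucleic acid is sensed and that induces the first interferon. IRF7 amplifies the response and in most cell types is itself an interferon-stimulated gene. IRF1 is induced by interferon gamma through the gamma-activated site (GAS). STAT3 transmits signals of the interleukin 6 family through the shared receptor gp130 and is a survival factor in cardiomyocytes.

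Each level below is in expected counts of each gene per 1000000 assigned reads after TMM scaling (CPM). The libraries held 10960051 to 11497104 assigned reads in Yap1 WT cells, 6103221 to 6357403 in Yap1 shRNA cells and 14868180 to 15368473 in GFP cells. Yap1 averaged 664 ± 132 CPM in Yap1 WT cells, 95.6 ± 0.360 CPM in Yap1 shRNA cells and 195 ± 4.36 CPM in GFP cells (SD, n = 3 each). The order of the groups is that of the labels. The species and extent of the Yap1 sequence in the virus are not given in the sources used here, so how much of the transgene message its value in Yap1 WT cells holds is not known. Its log2 fold change in Yap1 WT against GFP was 1.77, and it was 2.89 on log2(TPM + 1). The labelled cell type was checked with 10 cardiomyocyte markers, which summed to 4144 to 5743 CPM in Yap1 WT, 1238 to 1530 CPM in Yap1 shRNA and 18441 to 18567 CPM in GFP libraries. All 10 were lower than in GFP in both Yap1 groups, and none was at 0. Of all genes tested, 31.8% were lower in Yap1 WT against GFP and 39.1% in Yap1 shRNA against GFP. Macrophage markers summed to 65.8 to 69.1 CPM in Yap1 WT, 34.7 to 46.1 CPM in Yap1 shRNA and 49.0 to 55.1 CPM in GFP libraries. Of the 10 tested, 3 were higher and 1 lower in Yap1 WT against GFP, and 2 were higher and 5 lower in Yap1 shRNA against GFP. The share of all genes that passed the test in either direction was 63.8% in Yap1 WT and 78.3% in Yap1 shRNA against GFP. Dendritic cell markers summed to 18.7 to 20.9 CPM in Yap1 WT, 36.7 to 42.4 CPM in Yap1 shRNA and 15.2 to 16.0 CPM in GFP libraries. Of the 7 listed, 5 had a line and 2 were tested. Those 2 were Itgax, with 5.42 CPM in Yap1 WT, 19.9 CPM in Yap1 shRNA and 1.59 CPM in GFP cells, and Tcf4, which is also expressed outside these cells, with 13.8 CPM in Yap1 WT, 18.7 CPM in Yap1 shRNA and 13.3 CPM in GFP cells. The defining markers Flt3, Clec9a and Cd74 averaged at most 0.594 CPM in any group, and Clec9a was at 0 in Yap1 shRNA and GFP cells. Endothelial markers summed to 61.0 to 66.7 CPM in Yap1 WT, 71.8 to 76.1 CPM in Yap1 shRNA and 46.1 to 47.2 CPM in GFP libraries. Among their 8 tested genes, 4 were higher and 1 lower in Yap1 WT, and 7 were higher and 1 lower in Yap1 shRNA against GFP. Lymphocyte markers, of which 5 of the 9 listed had a line, summed to 0.639 to 6.18 CPM over all libraries. The 1 tested, Cd4, averaged 3.21 CPM in Yap1 WT, 0.664 CPM in Yap1 shRNA and 4.81 CPM in GFP cells. Cd4 was lower in Yap1 shRNA than in GFP (log2 fold change -2.86, SE 0.47, edgeR adjusted p = 9.45e-05). Fibroblast markers summed to 12360 to 16596 CPM in Yap1 WT, 7631 to 8290 CPM in Yap1 shRNA and 17911 to 19433 CPM in GFP libraries. Their 10 tested genes were mixed, with 3 higher and 5 lower in Yap1 WT, and 1 higher and 9 lower in Yap1 shRNA against GFP. Col1a1, the largest part of the sum, averaged 10394 CPM in Yap1 WT, 6383 CPM in Yap1 shRNA and 12538 CPM in GFP cells. Dcn went the other way, with 101 CPM in Yap1 WT, 94.7 CPM in Yap1 shRNA and 27.1 CPM in GFP cells. Smooth muscle and pericyte markers summed to 5542 to 7212 CPM in Yap1 WT, 4465 to 4990 CPM in Yap1 shRNA and 11123 to 11764 CPM in GFP libraries. Of the 8 tested, 7 were lower in Yap1 WT and 8 in Yap1 shRNA against GFP, beside the shares of all genes given above. Fewer cells of a type and less RNA per cell cannot be told apart in these bulk libraries, and the part of any cell type in the results was not tested.

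Promoter sequence is shown around each match to the response elements named above, which are short motifs. RefSeq promoters on the build GRCr8, from 250 bases before to 50 bases after a gene's start, matched 8 of the 9 genes, and Jak1 had no entry. The ISRE core was searched as GAAA and GAAA with 2 bases of any kind between them, and the GAS as TTCNNNGAA, on both strands, and no match of the ISRE core overlapped a match of the GAS in these promoters. The ISRE core was in 1 of the 8 promoters, that of Irf7, and in 3.92% of all 33469 promoters in the table. The GAS was in 3 of the 8, those of Irf1, Irf9 and Ifnar2, and in 8.87% of all promoters. Neither was in the windows of Stat2, Stat3, Irf3 and Ifnar1. The windows around the matches follow, read along the gene's strand, with the match in capitals.
Irf7: acagtttaggTTTCATTTTCccgagacgca
Irf9: accacgtgatTTCTAGGAActgcacctcc
Irf1: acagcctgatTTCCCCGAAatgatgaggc
Ifnar2: cTTCCTGGAAgacgggagta
The Irf7 window lies at chr1:205800073-205800102 on the minus strand, with the ISRE core on the opposite strand at bases -69 to -60 from the start. The Irf9 window lies at chr15:33065727-33065755, the Irf1 window at chr10:38417783-38417811 and the Ifnar2 window at chr11:44099520-44099539, all on the plus strand. Their GAS matches start at bases -99, -142 and -249. The table gives 1 start per gene, and those of Irf7, Irf9, Ifnar2, Stat2 and Stat3 were not the outermost start of the annotated gene. For Irf1, whose start is the outermost, the 250 bases before it (chr10:38417685-38417934) are 71.2% G and C.
Irf1 upstream: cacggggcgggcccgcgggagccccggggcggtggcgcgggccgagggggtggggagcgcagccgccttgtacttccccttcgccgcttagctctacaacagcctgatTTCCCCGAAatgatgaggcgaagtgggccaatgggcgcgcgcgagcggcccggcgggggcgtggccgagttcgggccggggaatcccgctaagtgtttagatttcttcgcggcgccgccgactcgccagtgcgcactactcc
For comparison, 11 of 14 ISGF3 target genes with a promoter in the table held the ISRE core and 4 of the 14 held the GAS. A match is a description of the letters in the window, and binding was not measured.

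The receptor subunits and Jak1 differed by at most 1.41-fold between groups. Ifnar2 was higher in Yap1 WT than in GFP, and neither Ifnar1 nor Jak1 passed the test. In Yap1 shRNA against GFP, Ifnar2 and Jak1 were higher by about the same factor and Ifnar1 did not pass the test. Ifnar1 (gene 288264, chromosome 11, 31640407 to 31666852, plus strand, rn6) encodes the receptor subunit that carries TYK2. It had 73.7, 66.5 and 68.9 CPM in the Yap1 WT libraries, 66.5, 59.0 and 55.4 CPM in the Yap1 shRNA libraries and 66.5, 62.6 and 63.3 CPM in the GFP libraries. The Yap1 WT values lay at or above all the others, and the Yap1 shRNA values overlapped those of GFP. Its log2 fold change was 0.12 (SE 0.07, edgeR adjusted p = 0.137) in Yap1 WT against GFP and -0.09 (SE 0.07, edgeR adjusted p = 0.280) in Yap1 shRNA against GFP. With the deposited TPM values the Ifnar1 difference of Yap1 shRNA from GFP was 0.11, with the opposite sign. Yap1 WT exceeded Yap1 shRNA by 0.21 (SE 0.07, edgeR adjusted p = 0.0244). That call was lost without Yap1 WT replicate 1 (0.18, edgeR adjusted p = 0.0664), without Yap1 shRNA replicate 2 (0.20, edgeR adjusted p = 0.0676) and without Yap1 shRNA replicate 3 (0.15, edgeR adjusted p = 0.114). With all libraries kept, the Ifnar1 call was also lost on log2(TPM + 1) (0.16, limma adjusted p = 0.208), on log2(TPM + 0.1) (0.16, limma adjusted p = 0.207) and with reads thinned to equal depth (0.16, edgeR adjusted p = 0.102).

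Ifnar2 (gene 686326, chromosome 11, 31527790 to 31559834, plus strand) encodes the subunit that carries JAK1. It had 28.2, 28.6 and 29.7 CPM in Yap1 WT, 28.1, 29.0 and 28.5 CPM in Yap1 shRNA and 21.2, 22.9 and 21.6 CPM in GFP libraries. All 6 libraries of the Yap1 groups lay above all 3 GFP libraries, and the Yap1 groups overlapped each other. It was 1.32-fold higher in Yap1 WT (log2 fold change 0.40, SE 0.07, edgeR adjusted p = 1.76e-04) and to a like degree higher in Yap1 shRNA than in GFP (0.38, SE 0.07, edgeR adjusted p = 2.73e-04). The Yap1 groups differed by 0.01 on the log2 scale (SE 0.07, edgeR adjusted p = 0.889). Ifnar1 and Ifnar2 share a stretch of 185 kb on chromosome 11 with Il10rb, an interleukin 10 receptor subunit, and Ifngr2, an interferon gamma receptor subunit. In Yap1 shRNA against GFP, Il10rb rose (log2 fold change 0.35, SE 0.09, edgeR adjusted p = 0.00359) and Ifngr2 fell (-0.49, SE 0.07, edgeR adjusted p = 4.00e-05). Neither passed the test in Yap1 WT against GFP, with log2 fold changes of 0.11 and -0.07.

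Jak1 (gene 84598, chromosome 5, 119981117 to 120091452, plus strand) encodes a kinase shared by interferon and gp130 receptors. It had 246, 234 and 235 CPM in Yap1 WT, 348, 337 and 324 CPM in Yap1 shRNA and 258, 243 and 244 CPM in GFP libraries. The Yap1 shRNA libraries lay above all 6 others, among which Yap1 WT and GFP overlapped. Its log2 fold change was -0.06 (SE 0.05, edgeR adjusted p = 0.322) in Yap1 WT against GFP. It was 1.35-fold higher in Yap1 shRNA than in GFP (0.44, SE 0.05, edgeR adjusted p = 3.50e-06). Yap1 WT lay 1.41-fold below Yap1 shRNA (log2 fold change -0.50, SE 0.05, edgeR adjusted p = 2.58e-06).

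The other Janus kinases moved differently. Jak2, which serves the interferon gamma and gp130 receptors, averaged 85.5 ± 0.729 CPM in Yap1 WT, 73.7 ± 3.90 CPM in Yap1 shRNA and 32.2 ± 2.09 CPM in GFP cells (SD, n = 3 each). It rose in both groups, with log2 fold changes of 1.41 (SE 0.06, edgeR adjusted p = 1.37e-09) and 1.20 (SE 0.07, edgeR adjusted p = 2.29e-09) against GFP. Tyk2 averaged 25.7 ± 1.02 CPM in Yap1 WT, 18.7 ± 1.87 CPM in Yap1 shRNA and 24.4 ± 0.913 CPM in GFP cells. It fell in Yap1 shRNA against GFP (-0.38, SE 0.09, edgeR adjusted p = 0.00155), a call that was lost on log2(TPM + 1), where it was -0.15 (limma adjusted p = 0.222). In Yap1 WT against GFP its log2 fold change was 0.08 (edgeR adjusted p = 0.391). Jak3, the kinase of the common gamma chain receptors, fell in Yap1 shRNA against GFP (-0.73, SE 0.11, edgeR adjusted p = 3.47e-05).

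Stat2 and Irf9, the ISGF3 subunits that are particular to type I and III interferon signalling, were higher in both Yap1 groups. Stat2 (gene 288774, chromosome 7, 2691064 to 2707530, plus strand) had 210, 206 and 232 CPM in Yap1 WT, 85.8, 106 and 82.8 CPM in Yap1 shRNA and 46.8, 50.7 and 50.7 CPM in GFP libraries. The 3 groups did not overlap, with Yap1 WT highest and GFP lowest. It was 4.38-fold higher in Yap1 WT (log2 fold change 2.13, SE 0.08, edgeR adjusted p = 4.52e-10) and 1.85-fold higher in Yap1 shRNA than in GFP (0.89, SE 0.09, edgeR adjusted p = 7.99e-07). Yap1 WT exceeded Yap1 shRNA 2.37-fold (1.24, SE 0.08, edgeR adjusted p = 6.37e-08).

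Irf9 (gene 305896, chromosome 15, 34282936 to 34288981, plus strand) encodes the DNA-binding subunit of ISGF3, whose promoter window with a GAS is printed above. It had 67.6, 80.7 and 75.6 CPM in Yap1 WT, 61.7, 68.0 and 57.7 CPM in Yap1 shRNA and 16.5, 18.7 and 17.8 CPM in GFP libraries. Every library of the Yap1 groups held over 3 times the level of any GFP library, and the lowest Yap1 WT library lay just below the highest Yap1 shRNA library. It was 4.22-fold higher in Yap1 WT (2.08, SE 0.09, edgeR adjusted p = 7.45e-10) and 3.53-fold higher in Yap1 shRNA than in GFP (1.82, SE 0.09, edgeR adjusted p = 8.92e-10). Yap1 WT exceeded Yap1 shRNA by 0.26 on the log2 scale (SE 0.08, edgeR adjusted p = 0.0155). The call was lost without Yap1 WT replicate 2 (0.20, edgeR adjusted p = 0.0535) and without Yap1 shRNA replicate 3 (0.20, edgeR adjusted p = 0.0723). It was also lost with all libraries kept, on log2(TPM + 1) (0.21, limma adjusted p = 0.0754) and on log2(TPM + 0.1) (0.21, limma adjusted p = 0.0796).

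Stat3 (gene 25125, chromosome 10, 88790401 to 88842263, minus strand) was higher in both Yap1 groups than in GFP, as was Stat2, but with the Yap1 groups in the opposite order. It had 374, 374 and 364 CPM in Yap1 WT, 461, 441 and 414 CPM in Yap1 shRNA and 258, 265 and 247 CPM in GFP libraries. The groups did not overlap, with Yap1 shRNA highest and GFP lowest. It was 1.44-fold higher in Yap1 WT (log2 fold change 0.53, SE 0.05, edgeR adjusted p = 2.04e-06) and 1.71-fold higher in Yap1 shRNA than in GFP (0.77, SE 0.05, edgeR adjusted p = 2.23e-08). Yap1 WT lay below Yap1 shRNA by 0.24 on the log2 scale (log2 fold change -0.24, SE 0.05, edgeR adjusted p = 0.00153). That difference did not pass the test with upper quartile scaling (-0.10, edgeR adjusted p = 0.102) or with library size alone (-0.13, edgeR adjusted p = 0.0526).

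Irf1 (gene 24508, chromosome 10, 39109522 to 39116532, plus strand), whose upstream sequence with a GAS is printed above, is an early interferon gamma response factor. It had 41.2, 41.7 and 38.9 CPM in Yap1 WT, 26.8, 29.9 and 23.7 CPM in Yap1 shRNA and 11.2, 13.7 and 13.0 CPM in GFP libraries. The groups stood in the same order as for Stat2 and did not overlap. It was 3.21-fold higher in Yap1 WT (log2 fold change 1.68, SE 0.09, edgeR adjusted p = 8.60e-09) and 2.12-fold higher in Yap1 shRNA than in GFP (1.08, SE 0.10, edgeR adjusted p = 5.09e-07). Yap1 WT exceeded Yap1 shRNA 1.52-fold (0.60, SE 0.09, edgeR adjusted p = 1.14e-04).

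Irf3 and Irf7, the virus-activated pair, moved in opposite directions. Irf3 (gene 292892, chromosome 1, 100992244 to 100997202, plus strand) had 63.8, 58.4 and 71.6 CPM in Yap1 WT, 43.0, 43.9 and 48.3 CPM in Yap1 shRNA and 75.7, 77.6 and 83.4 CPM in GFP libraries. The groups did not overlap, and GFP was highest, which held for no other member. It was 1.22-fold lower in Yap1 WT (log2 fold change -0.29, SE 0.08, edgeR adjusted p = 0.00468) and 1.75-fold lower in Yap1 shRNA than in GFP (-0.81, SE 0.08, edgeR adjusted p = 1.04e-06). The Yap1 WT call was lost with library size alone (-0.15, edgeR adjusted p = 0.0863), on log2(TPM + 1) (-0.16, limma adjusted p = 0.0797) and on log2(TPM + 0.1) (-0.16, limma adjusted p = 0.0811). Yap1 WT exceeded Yap1 shRNA 1.43-fold (0.52, SE 0.08, edgeR adjusted p = 1.50e-04).

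Irf7 (gene 293624, chromosome 1, 214249388 to 214252909, minus strand) had 266, 404 and 367 CPM in Yap1 WT, 95.9, 140 and 89.9 CPM in Yap1 shRNA and 4.58, 2.71 and 3.40 CPM in GFP libraries. The GFP values rested on 66, 40 and 50 expected counts. The groups were far apart, and the lowest Yap1 shRNA library was at many times the highest GFP library. Irf7 was 96.9-fold higher in Yap1 WT (log2 fold change 6.60, SE 0.24, edgeR adjusted p = 2.11e-10) and 30.4-fold higher in Yap1 shRNA than in GFP (4.92, SE 0.25, edgeR adjusted p = 9.93e-10). These ranked 43rd and 183rd from the top of 13708 genes by log2 fold change. Yap1 WT exceeded Yap1 shRNA 3.19-fold (1.67, SE 0.17, edgeR adjusted p = 2.22e-06). Its promoter, printed above, held the ISRE core. The ratio of Irf7 to Irf3, taken from TPM, a within-library share of transcripts that accounts for their length, was 4.20 ± 1.03 in Yap1 WT, 1.86 ± 0.544 in Yap1 shRNA and 0.0340 ± 0.00955 in GFP cells (SD, n = 3 each). Irf7 message was thus above that of Irf3 in each of the 6 libraries of the Yap1 groups and below it in all 3 GFP libraries.

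**Figure D1:**
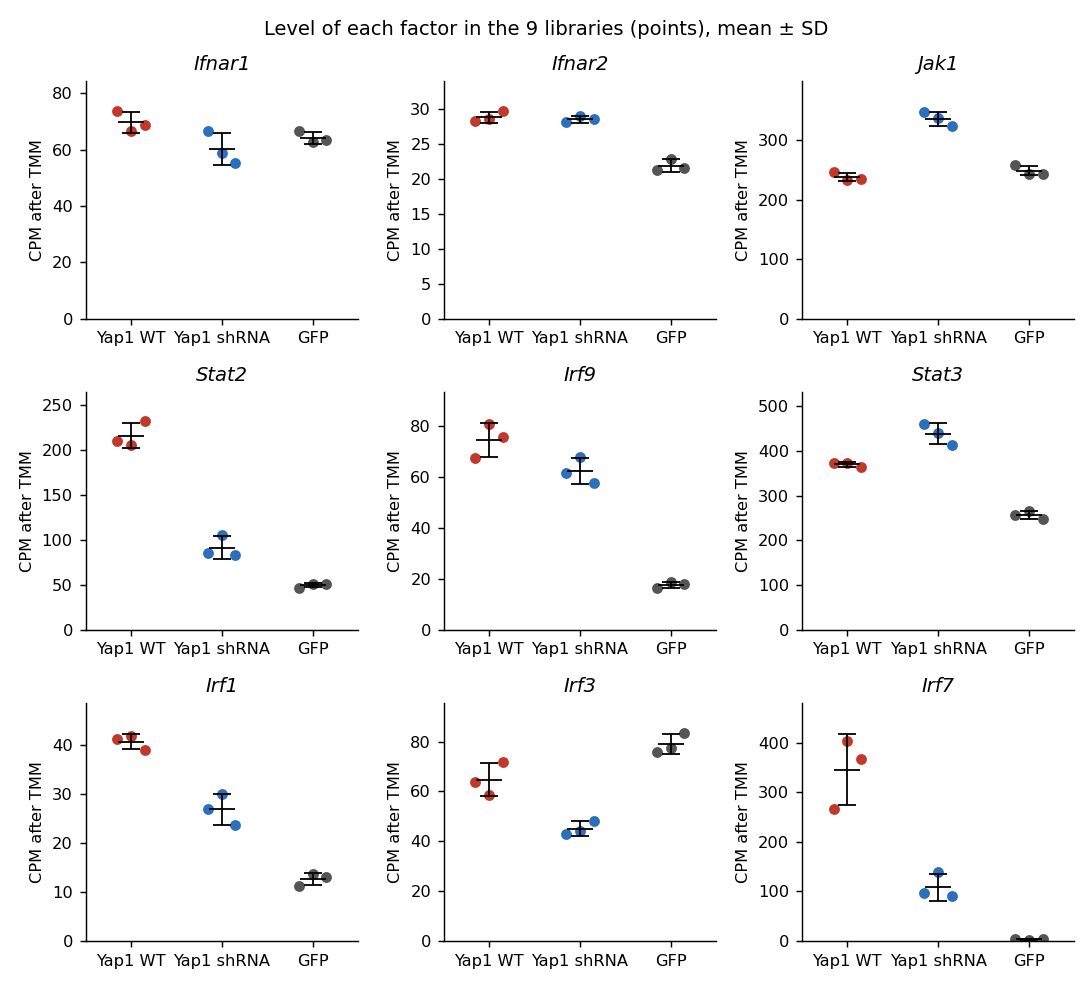
CPM after TMM scaling of each of the 9 genes, 1 panel per gene with its own linear axis from 0, with a point per library, the mean and the SD (n = 3) for Yap1 WT, Yap1 shRNA and GFP cells from left to right. Irf7, Stat2 and Irf1 are highest in Yap1 WT, Stat3 and Jak1 are highest in Yap1 shRNA, and Irf3 is highest in GFP cells, where it averaged 78.9 CPM.

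The order of the replicates was shared by some of the genes and not by others. In Yap1 shRNA cells, replicate 2 had the highest Irf7, Irf9, Stat2, Irf1 and Ifnar2 values of its group. Replicate 1 had the highest Ifnar1, Jak1 and Stat3 values there, and replicate 3 the highest Irf3 value. In Yap1 WT cells, replicate 2 was highest for Irf7, Irf9 and Irf1, and replicate 3 was highest for Stat2. For Irf1 the margin was small, with 41.7 CPM against 41.2 and 38.9 CPM. In GFP cells, replicate 2 was lowest for Irf7 and highest for Irf9 and Irf1. The coefficient of variation of Irf7 was 20.7% in Yap1 WT, 25.0% in Yap1 shRNA and 26.6% in GFP cells. Over genes of at least 5 CPM, the median was 6.72% in Yap1 WT and 7.40% in Yap1 shRNA cells. The 95th percentile was 19.9% in Yap1 WT and 22.8% in Yap1 shRNA cells, so in both Yap1 groups Irf7 lay above it. In GFP cells, Irf7 was under 5 CPM and was not set against these genes. The smallest coefficients were 1.49% for Stat3 in Yap1 WT and 1.56% for Ifnar2 in Yap1 shRNA cells.

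Levels were compared between genes in TPM. In Yap1 WT cells Irf7 was first with 271 ± 55.4 TPM, followed by Stat3 (120 ± 3.20), Stat2 (86.4 ± 4.78), Jak1 (69.3 ± 2.62), Irf3 (65.1 ± 5.99), Irf9 (62.2 ± 6.62), Irf1 (30.9 ± 1.47), Ifnar1 (21.6 ± 1.37) and Ifnar2 (15.0 ± 0.197). The libraries of Jak1 and Irf3, and those of Irf3 and Irf9, overlapped. In Yap1 shRNA cells the order was Stat3 (147 ± 12.5 TPM), Jak1 (101 ± 6.84), Irf7 (87.8 ± 19.9), Irf9 (53.8 ± 4.82), Irf3 (47.9 ± 3.13), Stat2 (37.8 ± 4.69), Irf1 (21.1 ± 2.39), Ifnar1 (19.4 ± 3.04) and Ifnar2 (15.4 ± 0.362). Here Jak1 overlapped with Irf7, Irf9 with Irf3, and Irf1 with Ifnar1. In GFP cells Stat3 (74.4 ± 2.60 TPM), Irf3 (72.7 ± 2.94) and Jak1 (64.6 ± 3.33) led. They were followed by Ifnar1 (17.7 ± 0.910), Stat2 (17.6 ± 0.242), Irf9 (13.0 ± 0.935), Ifnar2 (10.2 ± 0.249), Irf1 (8.58 ± 0.689) and Irf7 (2.47 ± 0.670). Stat3 overlapped with Irf3, and Ifnar1 with Stat2. Irf7 was therefore first in Yap1 WT cells, the third in Yap1 shRNA cells and last in GFP cells.

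**Figure D2:**
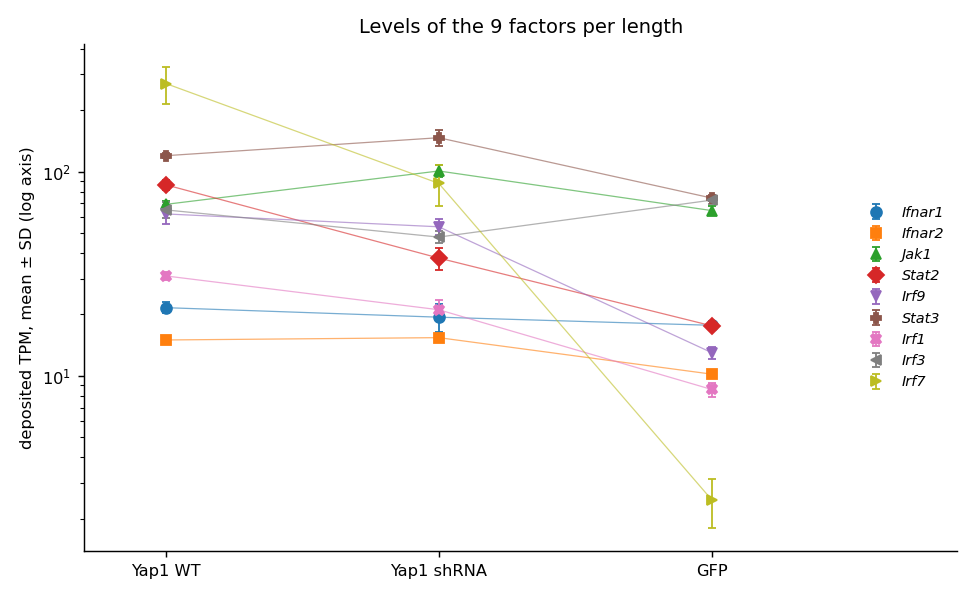
Mean TPM of the 9 genes on a log axis in Yap1 WT, Yap1 shRNA and GFP cells, with bars for the SD (n = 3) and thin lines joining the means of a gene. Irf7 lies at 271 TPM in Yap1 WT, 87.8 TPM in Yap1 shRNA and 2.47 TPM in GFP cells, while both receptor genes stay between 10.2 and 21.6 TPM in the group means.

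The balance within the pathway differed between the Yap1 groups. Irf9 message stood at 0.723 ± 0.101 of that of Stat2 in Yap1 WT, 1.43 ± 0.111 in Yap1 shRNA and 0.739 ± 0.0456 in GFP cells (TPM ratio, SD, n = 3 each). The ratio was close in Yap1 WT and GFP cells and was above 1 in each Yap1 shRNA library. Stat3 exceeded Stat2 by a factor of 1.39 ± 0.109 in Yap1 WT, 3.93 ± 0.501 in Yap1 shRNA and 4.22 ± 0.196 in GFP cells. The ratio of Ifnar1 to Ifnar2 was 1.44 ± 0.103 in Yap1 WT, 1.25 ± 0.166 in Yap1 shRNA and 1.74 ± 0.115 in GFP cells.

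Of the 9 genes, 6 were higher and 1 was lower in Yap1 WT than in GFP cells at an edgeR adjusted p under 0.05. Across all 13708 genes, 63.8% passed in that comparison, 32.0% higher and 31.8% lower. In Yap1 shRNA against GFP, 7 of the 9 were higher and 1 was lower, where 78.3% of all genes passed, 39.2% higher and 39.1% lower. In Yap1 WT against Yap1 shRNA, 6 were higher and 2 lower, where 62.5% of all genes passed, 31.2% higher and 31.3% lower. With library size alone in place of TMM scaling, 5637 genes were higher and 3344 lower in Yap1 WT against GFP, where TMM scaling gave 4391 and 4360, and 7 of the 9 genes were higher with none lower. On log2(TPM + 1) the same comparison gave 5419 higher and 2894 lower. With upper quartile scaling, 5561 were higher and 3467 lower in Yap1 WT against Yap1 shRNA, where TMM scaling gave 4273 and 4289. So large a share of genes passed that a count of 7 or 8 of 9 is near the background, and the direction and size of the changes carry the description. The median log2 fold change of the 9 was 0.53 in Yap1 WT against GFP, where that of all genes tested was 0.00. It was 0.77 in Yap1 shRNA against GFP (all genes -0.01) and 0.26 in Yap1 WT against Yap1 shRNA (all genes 0.04). Groups did not overlap in CPM for 8 of the 9 in Yap1 WT against GFP (70.7% of all genes), 8 in Yap1 shRNA against GFP (80.2%) and 7 in Yap1 WT against Yap1 shRNA (66.1%). Both comparisons with GFP use the same GFP libraries, so their values for a gene are not independent.

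**Figure D3:**
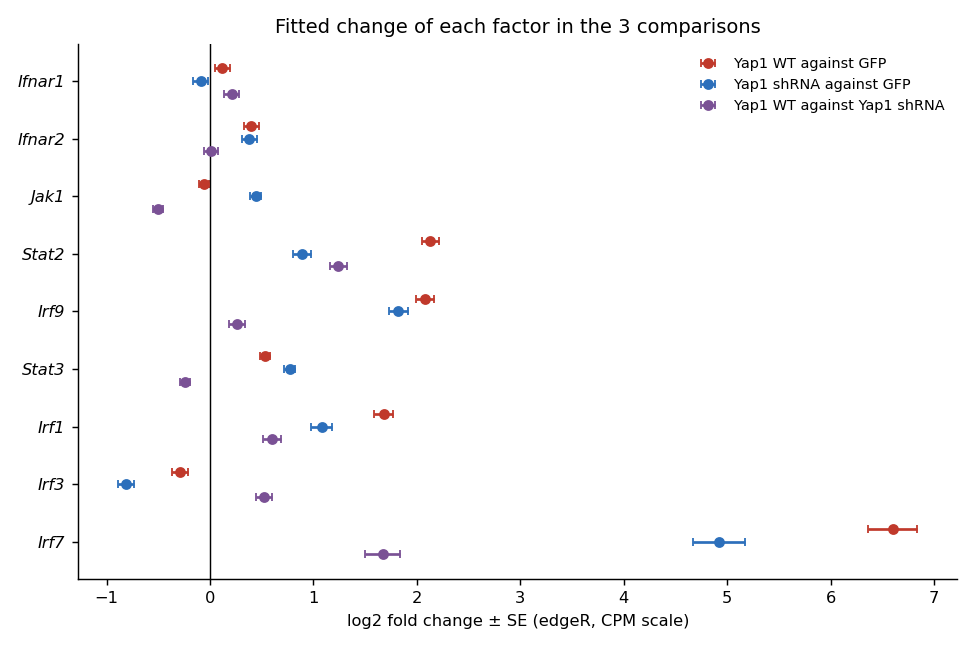
Log2 fold changes of the 9 genes in Yap1 WT against GFP, Yap1 shRNA against GFP and Yap1 WT against Yap1 shRNA, with bars for 1 SE on each side of the estimate. Irf7 lies farthest from 0 at 6.60, 4.92 and 1.67, and Irf3 is the 1 gene below 0 in both comparisons with GFP that passed the test, at -0.29 and -0.81.

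The direct comparison of the Yap1 groups sorted the 9 genes in 3 ways. Stat2, Irf1, Irf3 and Irf7 were higher in Yap1 WT than in Yap1 shRNA cells with no overlap between libraries, and Ifnar1 and Irf9 were higher with calls that were lost without single libraries and on the TPM scales, and for Ifnar1 also with thinning. Jak1 and Stat3 were lower. Ifnar2 did not pass the test.

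The rest of the pathway was described with 128 other genes in 11 lists, of which 119 had a line and 108 were tested. In Yap1 WT against GFP, 79 were higher and 11 lower (median log2 fold change 1.18). In Yap1 shRNA against GFP, 85 were higher and 14 lower (1.25), and in Yap1 WT against Yap1 shRNA, 59 were higher and 26 lower (0.39). The shares of all genes that passed, 63.8%, 78.3% and 62.5% in these comparisons, stand beside these counts and beside those of each list below.

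Messages of those interferons that had a line were at or near the counting floor. Of 12 listed ligand genes, 4 had a line and none passed the filter on low counts. The level of the listed ligands without a line is not known. Ifnb1, interferon beta, had 2 reads in the 3 Yap1 WT libraries together and 0 in the Yap1 shRNA and the GFP libraries. Ifne, interferon epsilon, had 16 reads in Yap1 WT, 4 in Yap1 shRNA and 10 in GFP libraries. A count of 0 allows up to 3 reads of a library, which is 0.195 to 0.492 CPM in these libraries before TMM scaling, so a lower level of ligand message was not detectable at this depth.

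The other STAT and IRF genes named by the rule were mixed. Stat5b, a growth hormone and cytokine factor, fell in both, by 0.43 in Yap1 WT (SE 0.11, edgeR adjusted p = 0.00366) and by 0.95 in Yap1 shRNA cells on the log2 scale (SE 0.13, edgeR adjusted p = 1.14e-05). On log2(TPM + 1) the Yap1 WT value was -0.26 (limma adjusted p = 0.112). Of 7 genes in the list of other IRFs and their partners, 3 were higher and 2 lower in Yap1 WT, and 4 were higher and 1 lower in Yap1 shRNA against GFP. Irf2bp2, an IRF2-binding corepressor, rose most firmly, to 58.7 ± 6.17 CPM in Yap1 WT and 126 ± 4.09 CPM in Yap1 shRNA cells against 35.2 ± 1.37 CPM in GFP cells (SD, n = 3 each). Irf8, a myeloid factor, averaged 3.13 ± 0.823 CPM in Yap1 WT, 3.14 ± 1.45 CPM in Yap1 shRNA and 0.980 ± 0.212 CPM in GFP cells. Its log2 fold changes were 1.66 (SE 0.33, edgeR adjusted p = 6.21e-04) and 1.67 (edgeR adjusted p = 8.32e-04) against GFP, and 0.79 and 0.80 on log2(TPM + 1). The 10 tested macrophage markers did not all move with Irf8. In Yap1 WT against GFP, 3 were higher and 1 lower, and in Yap1 shRNA against GFP, 2 were higher and 5 lower. Of the 2 tested dendritic cell markers, 1 was higher in Yap1 WT and 2 in Yap1 shRNA against GFP. The shares of all genes are those given above, and the part of myeloid cells was not tested.

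Among 13 kinases and adaptors upstream of IRF3 and IRF7, 10 were higher and 3 lower in Yap1 WT against GFP, and 8 were higher and 4 lower in Yap1 shRNA against GFP. Tbkbp1, an adaptor of the kinase TBK1, had the lowest p of this list in all 3 comparisons, with 36.5 ± 5.73 CPM in Yap1 WT, 142 ± 7.07 CPM in Yap1 shRNA and 12.2 ± 1.20 CPM in GFP cells (SD, n = 3 each). Tbk1, which phosphorylates IRF3 and IRF7, averaged 46.4 ± 5.60 CPM in Yap1 WT, 107 ± 12.0 CPM in Yap1 shRNA and 31.9 ± 2.16 CPM in GFP cells. Both were lower in Yap1 WT than in Yap1 shRNA cells, with log2 fold changes of -1.96 (SE 0.10, edgeR adjusted p = 6.49e-09) and -1.20 (SE 0.10, edgeR adjusted p = 3.37e-07). Mavs, the mitochondrial adaptor of RNA sensing, fell by 0.94 in Yap1 WT (SE 0.08, edgeR adjusted p = 7.11e-07) and by 1.25 in Yap1 shRNA cells against GFP (edgeR adjusted p = 5.14e-08). Myd88, the Toll-like receptor adaptor, rose by 0.81 in Yap1 WT against GFP (SE 0.07, edgeR adjusted p = 9.26e-07). It rose by 0.33 in Yap1 shRNA against GFP (SE 0.08, edgeR adjusted p = 0.00263), a call lost under 1 of the 21 alternatives.

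Of 15 genes that restrain interferon signalling, 9 were higher and 2 lower in Yap1 WT against GFP, and 11 were higher and 2 lower in Yap1 shRNA against GFP. Of all genes, 63.8% and 78.3% passed in these comparisons. Usp18, which acts at IFNAR2 and removes ISG15 from proteins, averaged 139 ± 26.6 CPM in Yap1 WT, 48.2 ± 9.87 CPM in Yap1 shRNA and 0.662 ± 0.152 CPM in GFP cells (SD, n = 3 each). Its log2 fold changes of 7.69 (edgeR adjusted p = 7.77e-11) and 6.16 (edgeR adjusted p = 4.02e-10) were 6.47 and 5.00 on log2(TPM + 1). Socs1, a suppressor of JAK kinases, averaged 4.54 ± 0.0737 CPM in Yap1 WT, 5.42 ± 1.26 CPM in Yap1 shRNA and 0.888 ± 0.178 CPM in GFP cells. Socs3, the gp130 feedback inhibitor, averaged 37.0 ± 3.35 CPM in Yap1 WT, 66.0 ± 10.9 CPM in Yap1 shRNA and 22.9 ± 2.42 CPM in GFP cells. Both Socs genes rose in both comparisons with GFP, and the Yap1 groups stood in opposite orders for Usp18 and Socs3, with log2 fold changes of Yap1 WT against Yap1 shRNA of 1.53 (edgeR adjusted p = 1.40e-06) and -0.83 (edgeR adjusted p = 3.43e-05). Trim24, a transcriptional cofactor, and Ptpn1, a phosphatase that acts on JAK kinases, had the lowest p of this list in Yap1 shRNA against GFP, with log2 fold changes of 3.57 and 1.78. Trim24 and Ptpn1 were also higher in Yap1 WT than in GFP, by 2.04 (edgeR adjusted p = 4.27e-09) and 1.04 (edgeR adjusted p = 1.43e-08). Socs2, a suppressor of growth hormone signalling, fell by 2.13 in Yap1 WT against GFP (SE 0.09, edgeR adjusted p = 1.19e-09). It fell to a like degree, by 1.99, in Yap1 shRNA against GFP (SE 0.10, edgeR adjusted p = 1.23e-09).

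The ISGF3 targets had the largest median log2 fold change of the lists with genes tested, in all 3 comparisons. All 23 ISGF3 target genes were higher in Yap1 WT than in GFP (median log2 fold change 6.26), all 23 in Yap1 shRNA than in GFP (4.52), and all 23 in Yap1 WT than in Yap1 shRNA (1.53). Their summed level was 2470, 3006 and 3118 CPM in Yap1 WT, 985, 1245 and 924 CPM in Yap1 shRNA and 130, 122 and 120 CPM in GFP libraries. Yap1 shRNA replicate 2, highest for Irf7, Irf9, Stat2 and Irf1, was also highest in this sum. Among the Yap1 WT libraries, replicate 3 was highest in this sum. Parp14, an ADP-ribosyltransferase, had the lowest p in Yap1 WT against GFP, with 206 ± 11.9 CPM in Yap1 WT, 89.4 ± 10.1 CPM in Yap1 shRNA and 14.1 ± 1.19 CPM in GFP cells (SD, n = 3 each). Eif2ak2, the RNA-activated kinase PKR, had it in Yap1 shRNA against GFP, with 257 ± 23.9 CPM in Yap1 WT, 188 ± 11.8 CPM in Yap1 shRNA and 34.4 ± 2.56 CPM in GFP cells. Cmpk2, a mitochondrial nucleotide kinase, had it in Yap1 WT against Yap1 shRNA, at a log2 fold change of 2.33 (SE 0.14, edgeR adjusted p = 2.54e-08).

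Of 17 tested IRF1 and gamma-activated target genes, 17 were higher in Yap1 WT than in GFP (median log2 fold change 3.06), 16 in Yap1 shRNA than in GFP (2.08) and 15 in Yap1 WT than in Yap1 shRNA (0.95), and none was lower in any of these. Gbp5, a guanylate-binding protein of host defence, averaged 98.0 ± 9.34 CPM in Yap1 WT, 11.7 ± 1.48 CPM in Yap1 shRNA and 2.48 ± 0.151 CPM in GFP cells (SD, n = 3 each). Cxcl10, the chemokine of the CXCR3 receptor, averaged 331 ± 55.8 CPM in Yap1 WT, 61.0 ± 11.2 CPM in Yap1 shRNA and 2.44 ± 0.924 CPM in GFP cells. Tap1, the peptide transporter of antigen presentation, averaged 110 ± 6.73 CPM in Yap1 WT, 63.8 ± 8.92 CPM in Yap1 shRNA and 16.4 ± 0.767 CPM in GFP cells. The log2 fold changes of Gbp5 were 5.30 in Yap1 WT and 2.22 in Yap1 shRNA against GFP, and the first of these was 4.62 on log2(TPM + 1).

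The sum of the STAT3 target genes stood in the same order of groups as Stat3, and a link between them was not tested. Of the 15, 14 were higher in Yap1 WT against GFP (median log2 fold change 1.17) and 15 in Yap1 shRNA against GFP (1.42), and in Yap1 WT against Yap1 shRNA 5 were higher and 9 lower (-0.53). The summed level was 1812, 2135 and 1995 CPM in Yap1 WT, 2448, 2680 and 2517 CPM in Yap1 shRNA and 985, 1006 and 1015 CPM in GFP libraries. Myc, a growth-promoting factor, averaged 129 ± 17.1 CPM in Yap1 WT, 354 ± 20.2 CPM in Yap1 shRNA and 48.4 ± 2.77 CPM in GFP cells (SD, n = 3 each). Lcn2, an acute phase protein, averaged 205 ± 64.5 CPM in Yap1 WT, 161 ± 30.2 CPM in Yap1 shRNA and 1.39 ± 0.370 CPM in GFP cells. Cebpd, a factor of the acute phase response, went against the list's order between the Yap1 groups, with 98.6 ± 6.82 CPM in Yap1 WT, 51.4 ± 4.90 CPM in Yap1 shRNA and 26.4 ± 2.36 CPM in GFP cells.

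Among 12 genes of gp130 cytokines and receptors, 5 were higher and 3 lower in Yap1 WT against GFP, and 8 were higher and 2 lower in Yap1 shRNA against GFP. Counted in either direction, this is near the shares of all genes that passed, 63.8% and 78.3%. Lif, leukaemia inhibitory factor, averaged 42.2 ± 2.85 CPM in Yap1 WT, 50.9 ± 4.08 CPM in Yap1 shRNA and 9.34 ± 0.124 CPM in GFP cells (SD, n = 3 each). Osmr, the oncostatin M receptor, averaged 162 ± 10.9 CPM in Yap1 WT, 122 ± 5.47 CPM in Yap1 shRNA and 35.2 ± 2.25 CPM in GFP cells. Il6st, which encodes gp130, averaged 391 ± 3.20 CPM in Yap1 WT, 509 ± 35.0 CPM in Yap1 shRNA and 281 ± 6.20 CPM in GFP cells, with Yap1 shRNA above Yap1 WT as for Stat3 and Jak1. Il6 had 479 expected counts in the Yap1 WT libraries together, 116 in Yap1 shRNA and 9 in GFP libraries. Its log2 fold changes of 5.97 and 4.87 against GFP were 4.21 and 3.21 on log2(TPM + 1) and 6.74 and 5.56 with reads thinned to equal depth.

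**Figure D4:**
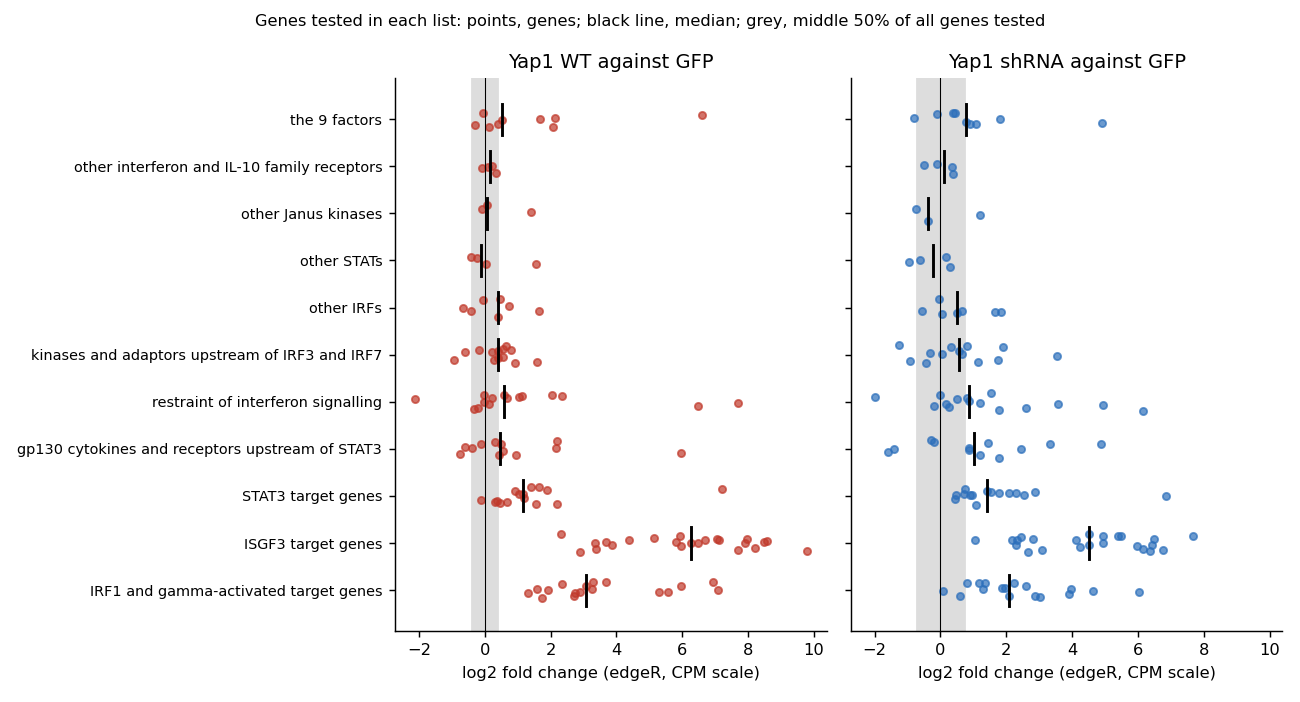
Log2 fold changes of the 9 genes and of the tested genes in each pathway list, 1 point per gene, in Yap1 WT against GFP (left) and Yap1 shRNA against GFP (right). Black lines mark medians, which are 6.26 and 4.52 for the ISGF3 targets and 1.17 and 1.42 for the STAT3 targets, and the grey band holds the middle 50% of all genes tested.

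For the members that were called in both comparisons with GFP and reached a log2 fold change of 1 in either, the genes with the most similar pattern were sought. Similarity was the root mean square difference of log2 CPM over the 9 libraries after centring on the GFP mean, among 10440 genes of at least 5 CPM, and it is a description. The nearest to Irf7 were Isg15 (0.26), a ubiquitin-like interferon-stimulated protein, Cxcl10 (0.34) and Ifit3 (0.37), an interferon-induced antiviral protein. The nearest to Stat2 were Xdh (0.12), xanthine dehydrogenase, Parp10 (0.14), an ADP-ribosyltransferase, and Tmem106a (0.14). The nearest to Irf9 were Lbp (0.10), the lipopolysaccharide-binding protein, Nfkbia (0.10), the inhibitor of NF-kappaB, and Osmr (0.12). The nearest to Irf1 were Prr16 (0.09), Icam1 (0.12), a leukocyte adhesion molecule, and Steap1 (0.13). None of these genes is shared by the 4 lists, and the distances of Irf7 were larger than those of the other 3.

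The authors' deposited table gives its own log2 fold changes for the same comparisons. In the authors' deposited table Irf7 has 6.61 in Yap1 WT and 4.93 in Yap1 shRNA against GFP, and Stat2 has 2.13 and 0.89. The calls of the 9 genes differed from the authors' deposited table at the same threshold for Yap1 WT against Yap1 shRNA alone, where the authors' q is 0.139 for Ifnar1 and 0.0622 for Irf9.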

How the data were processed

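Poly(A) RNA from cultured neonatal rat heart cells was profiled in 9 libraries, grouped by the virus named in their labels. The authors deposited expected counts per gene, which are not normalized and of which 89.82% are whole numbers within 0.005. The deposited TPM values were scaled by the authors and sum to 1000000 in each library, and the deposited FPKM values were not used. A further deposited table repeats 36 columns and was not used. Log2 fold changes and p-values or q-values were deposited by the authors for each comparison, per the file headers. The submitters' processing notes name HISAT2, Bowtie2, RSEM 1.3.1, DESeq2 1.4.5 and the build rn6, without their roles. Whether the counting used strand is not given in the sources used here.

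Expected counts were rounded to whole numbers. A single model of the 9 libraries, with group as its factor, was fitted with edgeR 4.0.16 (R 4.3.3) after TMM scaling and filterByExpr. The quasi-likelihood F test was two-sided, with Benjamini-Hochberg adjustment over 13708 genes, and 0.05 was the threshold, without a minimum fold. SE is the size of the log2 fold change divided by the square root of F. TMM factors were 0.961 to 1.07 and the biological coefficient of variation was 7.18%. No pair of replicates agreed within sampling noise, with chi-square per degree of freedom of 2.34 to 11.4. The method was also run on simulated counts. Far fewer genes were changed in them than passed the test here, so they do not check the scaling.

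The 9 genes and all lists were chosen with earlier results of these data known. Named beside the 9 were up to 3 called genes with the lowest p per list and comparison, the genes Ifnb1, Tyk2, Jak2, Socs1, Socs3 and Usp18, and the 3 nearest genes of each member that reached a log2 fold change of 1 and was called in both comparisons with GFP. Ifne was named after its values were seen. The text describes part of the genes that this rule selects, a part chosen after their values were seen, and 1 of them is not reported here. The alternatives were scaling by library size, upper quartile or RLE, testing with DESeq2 1.42.0 or voom in limma 3.58.1, trended limma on log2(TPM + 1) or log2(TPM + 0.1), no filter, a filter of 5 CPM in 3 libraries, the compared groups alone, a replicate block, thinning to equal depth and each library left out.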

Additional observations from a re-analysis of the deposited data

How the results depend on the processing

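The counts of called genes, for the 9 genes, the 108 other pathway genes and all genes tested, stayed within 1.5 times their reported values under all 21 alternatives run. Called members numbered 7 in Yap1 WT against GFP throughout, and ranged from 8 to 9 in Yap1 shRNA against GFP and 6 to 8 in Yap1 WT against Yap1 shRNA. Called genes over the whole table ranged from 7592 to 8981, 9381 to 11389 and 7825 to 9028 in these comparisons. The promoter count for the ISRE core was 1 with the shorter motif GAAANNGAA and with the 250 bases before the start alone. The median of all genes moved by over 0.1 under some scalings, which shifts small fold changes. It was 0.14 in Yap1 WT against GFP with library size alone and 0.14 on log2(TPM + 1), where it was 0.16 in Yap1 shRNA against GFP. With upper quartile scaling it was -0.15 in Yap1 shRNA against GFP and 0.18 in Yap1 WT against Yap1 shRNA. Of 567 values of the 9 genes under the alternatives, 540 kept their direction and side of the threshold, 15 lost a call, 4 gained one and 8 changed sign. The cause of these changes was not tested. Beside the losses given with the genes, Ifnar1 in Yap1 WT against GFP gained a call with library size alone (0.26) and on log2(TPM + 1) (0.27), and in Yap1 shRNA against GFP with upper quartile scaling (-0.23). Of 3587 values of 57 other named genes, 3511 kept both, 28 lost a call, 22 gained one and 26 changed sign.

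All values that changed sign belonged to differences that did not pass the test. In Yap1 WT against GFP, with library size alone, log2(TPM + 1) and log2(TPM + 0.1), Jak1 was 0.08, 0.10 and 0.10, Ifngr2 was 0.06, 0.09 and 0.09, Jak3 was 0.06, 0.07 and 0.07, and Vegfa was 0.02, 0.00 and 0.00. Jak3 was 0.01 with thinning and -0.13 to 0.01 with single libraries left out, and Cntfr was -0.02 to 0.67. In Yap1 shRNA against GFP, on the 2 TPM scales, Ifnar1 was 0.11 and 0.12 and Ifngr1 was 0.10 and 0.10. In Yap1 WT against Yap1 shRNA, Ifnar2 was -0.04 and -0.04 on the TPM scales and -0.00 to 0.04 with single libraries left out. Irf8 in that comparison was 0.13 with upper quartile scaling, 0.11 with library size alone, 0.03 with limma-voom, 0.01 on log2(TPM + 0.1), 0.03 with no count filter, 0.01 with the replicate block, 0.03 with thinning and -0.23 to 0.44 with single libraries left out. With upper quartile scaling, Irf2bpl was 0.02 and Socs2 was 0.00.

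Over all genes tested, the deviations of same-numbered libraries correlated at -0.0313 to 0.0939. Whether these libraries share a cell isolation was not settled by this, and the labels do not say. With the replicate block, 7, 8 and 8 members and 8812, 10752 and 8590 of all genes were called in Yap1 WT against GFP, Yap1 shRNA against GFP and Yap1 WT against Yap1 shRNA. Depth limits genes with few reads most in the Yap1 shRNA libraries, which had 6103221 to 6357403 assigned reads.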
